A study of Mus musculus with 18 samples.

Results

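The blood-brain barrier is built by brain endothelial cells, and 9 of its genes were followed here by their gene symbols among the 30905 genes of the count matrices: the junction genes Cldn5, Ocln, Tjp1 and Cdh5, and the transport genes Slc2a1, Mfsd2a, Slco1a4, Abcb1a and Abcg2. All 9 were found and all 9 passed the filter on low counts in the endothelial nuclei of both brain regions. Single-nucleus RNA was measured in hippocampus (Hip) and prefrontal cortex (PFC) of 9 Kun Ming mice, 3 GF (germ-free), 3 CGF (colonized GF) and 3 SPF (specific pathogen free), which gave 18 libraries. The CGF mice were GF animals that lived from 4 weeks of age together with SPF mice for 4 weeks, and all mice were 8 weeks old at collection. Both regions of a mouse carry the same mouse number. The SPF mice were raised in other conditions than the GF mice, which lived in isolators, so that the microbiota and the housing cannot be told apart between GF and SPF, and the sex of the animals and their litters are not given in the sources used here.

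Endothelial cells of the brain seal the gaps between each other with tight junctions and carry few transport vesicles, so that most solutes cross only through named carriers. Claudin-5 (Cldn5) and occludin (Ocln) are membrane proteins of the tight junction, ZO-1 (Tjp1) is the scaffold beneath it, and VE-cadherin (Cdh5) holds the adherens junction. Glut1 (Slc2a1) brings in glucose, Mfsd2a carries lysophospholipids and keeps vesicle traffic low, Oatp1a4 (Slco1a4) moves organic anions, and P-glycoprotein (Abcb1a) and Bcrp (Abcg2) are ATP-driven pumps that return drugs and other substrates to the blood.

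The promoters of a pair of members with higher and a pair with lower counts in GF PFC are shown so that their letters can be set beside the results. They are RefSeq windows of build GRCm38.p6, from 250 bases before the start of transcription to 50 after it, written 5′ to 3′ on the strand of the gene: Cldn5 at chr16:18776597-18776896 on the plus strand, Slc2a1 at chr4:119108495-119108794 on the plus strand, Slco1a4 at chr6:141856171-141856470 on the minus strand and, of 3 Abcg2 windows, the one at chr6:58584283-58584582 on the plus strand. The window of Abcb1a, the third member lower there, lies upstream of the gene start of the annotation used here and is not printed. It held CTTTGA at 2 places and neither of the other motifs. Capitals mark matches on either strand to GGAAGT (the core read by ETS factors), CTTTGA (TCF/LEF) or ACAATG (SOX).
Cldn5: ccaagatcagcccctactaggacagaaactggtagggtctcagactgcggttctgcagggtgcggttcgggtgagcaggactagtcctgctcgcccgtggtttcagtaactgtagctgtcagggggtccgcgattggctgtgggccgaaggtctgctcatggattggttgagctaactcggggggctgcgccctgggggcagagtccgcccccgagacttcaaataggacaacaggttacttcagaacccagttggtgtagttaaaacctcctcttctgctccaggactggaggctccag
Slc2a1: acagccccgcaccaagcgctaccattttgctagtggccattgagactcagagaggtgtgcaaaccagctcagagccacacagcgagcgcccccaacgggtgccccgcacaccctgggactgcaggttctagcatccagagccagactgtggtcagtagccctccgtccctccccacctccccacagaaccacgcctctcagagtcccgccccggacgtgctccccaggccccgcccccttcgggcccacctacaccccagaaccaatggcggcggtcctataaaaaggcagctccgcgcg
Slco1a4: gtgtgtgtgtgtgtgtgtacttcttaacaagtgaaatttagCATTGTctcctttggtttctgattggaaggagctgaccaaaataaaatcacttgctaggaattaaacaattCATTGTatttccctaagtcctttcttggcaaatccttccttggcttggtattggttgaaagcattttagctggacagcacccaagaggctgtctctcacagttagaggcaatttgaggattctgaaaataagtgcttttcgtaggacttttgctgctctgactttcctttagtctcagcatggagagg
Abcg2: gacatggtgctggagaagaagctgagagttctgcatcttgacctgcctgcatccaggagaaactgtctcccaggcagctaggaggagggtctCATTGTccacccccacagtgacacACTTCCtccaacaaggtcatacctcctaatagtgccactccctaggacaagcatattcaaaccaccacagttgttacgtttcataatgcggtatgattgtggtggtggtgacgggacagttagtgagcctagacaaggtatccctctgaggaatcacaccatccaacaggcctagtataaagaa
The Cldn5 and Slc2a1 windows held none of these 3 motifs. The Slco1a4 window held ACAATG at 2 places and the Abcg2 window held GGAAGT and ACAATG once each, and they do not overlap. Among all 32851 RefSeq windows of this length 23.8% held GGAAGT, 16% CTTTGA and 12.6% ACAATG. G and C made up 58.3% of the Cldn5 window and 65.3% of the Slc2a1 window, against 40.7% in that of Slco1a4 and 50% in that of Abcg2. The Abcg2 window shown is its first, and the only one of its 3 with both a GGAAGT and an ACAATG match. The second held GGAAGT alone, at 48% G and C, and the third none, at 67%.

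The genes differ widely in size. Cldn5 has a single exon and spans 1.42 kb (chr16:18776847-18778262, plus strand, mm10), whereas Mfsd2a spans 14.3 kb on chromosome 4, Slc2a1 29.3 kb on chromosome 4, Slco1a4 50.8 kb on chromosome 6, Cdh5 42.9 kb on chromosome 8, Ocln 56.2 kb on chromosome 13, Abcb1a 88.5 kb on chromosome 5, Abcg2 111 kb on chromosome 6 and Tjp1 232 kb on chromosome 7. Nuclear RNA holds unspliced transcripts, and whether reads in introns were counted is not given in the sources used here. Levels are given as CPM, the UMIs of a gene scaled to a common total per library, and were not divided by length, so levels were compared within a gene only.

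Endothelial nuclei were taken as those with at least 4 unique molecular identifiers (UMIs) of Flt1, Pecam1 and Adgrl4 together, none of them a member. This gate held 2079 of 138000 nuclei, from 48 in Hip of GF mouse 5 to 235 in PFC of GF mouse 7. Of the gated nuclei 95.9% had a UMI of 8 further endothelial genes, against 6.10% to 22.1% of excitatory neuron nuclei. Libraries held 49067853 to 63217083 UMIs in Hip and 59126586 to 71463928 in PFC of GF mice, but 20336250 to 26949210 in PFC of SPF and CGF mice, and the median gated nucleus held 2502 to 4295 UMIs in Hip, 2215 to 2280 in GF PFC and 1400 to 1712 in SPF and CGF PFC. The gate also passed nuclei in which another type's marker list was at least as high as the endothelial one: 37.9% to 41.1% of gated nuclei in GF PFC, 8.70% to 22.8% in SPF PFC and 13.6% to 23.3% in CGF PFC, 77.4% in Hip of GF mouse 6 and 41.1% to 51.6% in the 8 other Hip libraries. With the choroid plexus transcript Ttr left out of its list, which was chosen after seeing the data, Hip gave 38.5% to 49.5%, GF mouse 6 40.3%, and PFC did not change. In 18 of 18 libraries the nuclei left over by that second reading held more UMIs in the median (1474 to 6158.5) than the rest of the gate (1276 to 3512), and no doublet caller was run. No pair of libraries shared more than 0.366% of the barcodes of the smaller one. In Hip of GF mouse 6 Ttr reached 6590 CPM in the gated nuclei, and in the other Hip libraries 18 to 1452 CPM. Mitochondrial UMIs made up 1.39% to 2.10% of the UMIs of gated nuclei in GF PFC, 2.88% to 4.66% in SPF PFC and 3.27% to 3.78% in CGF PFC, while the Hip libraries ran from 0.546% to 0.662% for CGF, from 0.760% to 1.17% for SPF and from 1.12% to 3.14% for GF.

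Each of the 9 genes was highest on average in the endothelial nuclei. Averages over libraries with at least 10 nuclei of a type are given as CPM ± SD. Cldn5 stood at 969.9 ± 376 CPM in endothelial nuclei (n = 18 libraries), 18.7 times the next type, mural cells, at 52.0 ± 49.1 CPM (n = 18), and below 10 CPM elsewhere. Abcb1a had 555 ± 168 CPM in endothelial nuclei and 54.8 ± 50.6 CPM in fibroblasts (n = 10), a ratio of 10.1. Slco1a4 had 1814 ± 698 CPM in endothelial nuclei, and choroid plexus, which carries organic anions between blood and cerebrospinal fluid, came next at 259 ± 78.9 CPM (n = 7). None of the endothelial libraries overlapped a library of another type for these 3 genes, nor for Ocln and Slc2a1.
The remaining members had their next highest levels in ependymal cells, glia or fibroblasts. Ocln had 228 ± 53.5 CPM in endothelial nuclei and 107 ± 34.3 CPM in ependymal cells (n = 9) and 98.5 ± 21.3 CPM in choroid plexus (n = 7), both of which line the ventricles. Slc2a1 had 893 ± 251 CPM in endothelial nuclei, 232 ± 118 CPM in ependymal cells and 31.3 ± 12.2 CPM in astrocytes (n = 18). Mfsd2a had 148 ± 44.1 CPM in endothelial nuclei, and oligodendrocyte precursor cells (OPC) at 53.2 ± 30.3 CPM overlapped its endothelial range. Abcg2 had 437 ± 139 CPM in endothelial nuclei, 117 ± 65.9 CPM in fibroblasts, which overlapped, and 78.8 ± 34.1 CPM in microglia. Cdh5 had 176 ± 61.3 CPM in endothelial nuclei and 86.5 ± 38.3 CPM in fibroblasts, again with overlap. Tjp1 was the broadest, with 1085 ± 288 CPM in endothelial nuclei and 636 ± 109 CPM in astrocytes, and its ranges overlapped those of astrocytes, fibroblasts and mural cells. Because every type but the endothelial one was typed after the gate, endothelial nuclei below it may sit among the others.

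**Figure D1:**
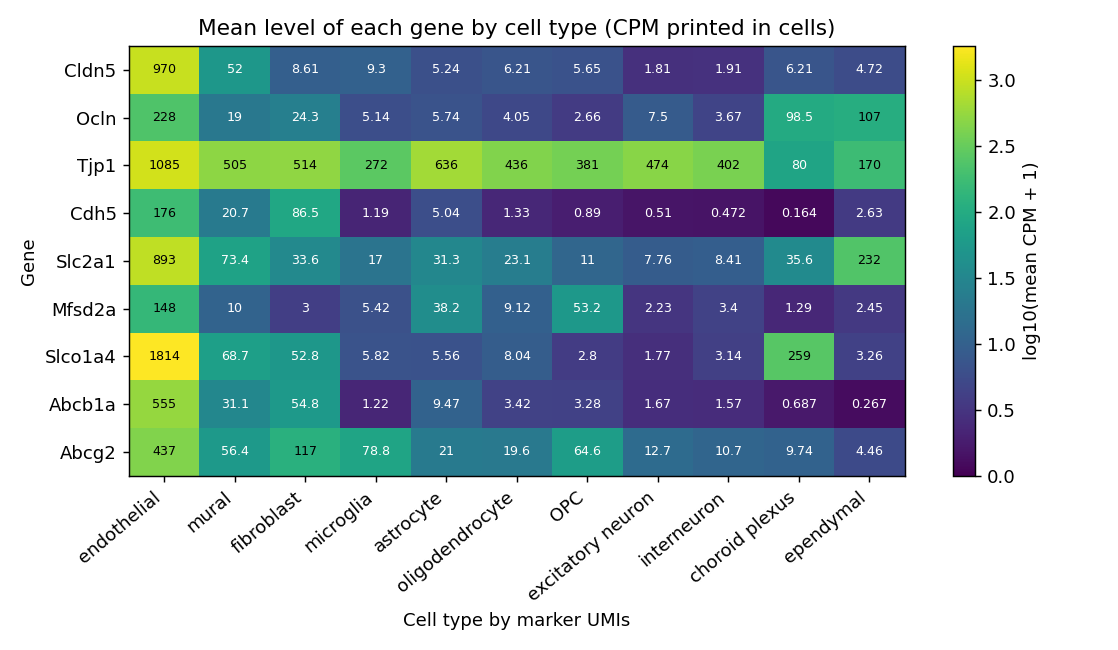
Mean level of each gene (rows) in each cell type (columns), as CPM printed in the cells and as log10(mean CPM + 1) in colour, over the libraries with at least 10 nuclei of the type. The endothelial column is the highest of every row, by 18.7 times for Cldn5 and by 1.71 times for Tjp1.

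Across the 11 types, the mean log2(CPM + 1) of the 9 members was most like that of Klf4 (Pearson r = 0.99), Ramp2 (0.98), Kctd10 (0.98), Klf2 (0.97) and Slc30a1 (0.97). These are correlations over types that share libraries, given as a description.

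The share of gated nuclei with at least 1 UMI was taken after each nucleus was thinned to 1000 UMIs, which 1923 of the 2079 nuclei reached. Slco1a4 was found in 75.2% ± 8.10 of thinned nuclei (SD, n = 18 libraries; 88.9% unthinned) and Cldn5 in 53.4% ± 12.4 (70.5% unthinned), while Cdh5 was found in 17.3% ± 4.46 (39.4% unthinned) and Mfsd2a in 14.9% ± 3.06 (33.1% unthinned). In excitatory neurons, which should lack them, the thinned shares of these 4 genes were 0.227%, 0.252%, 0.101% and 0.275%. Tjp1 was in 63.5% ± 7.43 of endothelial and 35.8% ± 1.44 of excitatory neuron nuclei.

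Brain vessels change from artery through capillary to vein, and gated nuclei were split by UMIs of 8 arterial and 6 venous genes. Nuclei with UMIs of both sets were left out. At 1 UMI, 141 arterial, 305 venous and 256 nuclei with neither set remained of 1071 gated in Hip. In PFC 122, 340 and 324 remained of 1008. With at least 1 UMI of the markers, the members had higher means in venous than in arterial nuclei in both regions. So did the transferrin receptor gene Tfrc, which is not a member (409 against 191 CPM in Hip, 529 against 281 CPM in PFC). All genes were not compared in this way, so the direction cannot be called a trait of the members. Cdh5 in Hip (5.74 ± 118 CPM) and Ocln in PFC (22.02 ± 315 CPM) differed by far less than the SD over libraries. With at least 2 UMIs they turned to -16.3 and -27.0 CPM, and the other differences kept their sign. Mfsd2a in PFC was above in 5 of 9 libraries. Its mean was highest in nuclei with neither marker set, at 185 CPM in Hip and 194 CPM in PFC. Cldn5 was higher in the venous than in the arterial nuclei of 9 of 9 Hip libraries and 8 of 9 PFC libraries: 1399 ± 514 against 656 ± 263 CPM in Hip and 1056 ± 560 against 520.3 ± 338 CPM in PFC (SD, n = 9). Abcg2 stood at 756 ± 157 CPM in venous and 506 ± 417 CPM in arterial nuclei of PFC, with venous above arterial in 8 of 9 libraries, and Abcb1a at 724 ± 209 against 425 ± 181 CPM, also in 8 of 9, as were Tjp1 and Slco1a4 there and Ocln in Hip. Cdh5 in Hip was above in 4 of 9 libraries, with 192 ± 93.7 against 187 ± 99.7 CPM. The arterial class was small, 141 nuclei in Hip and 122 in PFC, and the mural gene Rgs5 averaged 2244 CPM in venous and 2243 CPM in arterial nuclei of Hip (venous above in 3 of 9 libraries) and 1119 against 940 CPM in PFC. With at least 2 UMIs of the markers Rgs5 in Hip stood at 2514 against 1935 CPM. Nuclei come from the same libraries in both classes, and no test was run on this split.

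**Figure D2:**
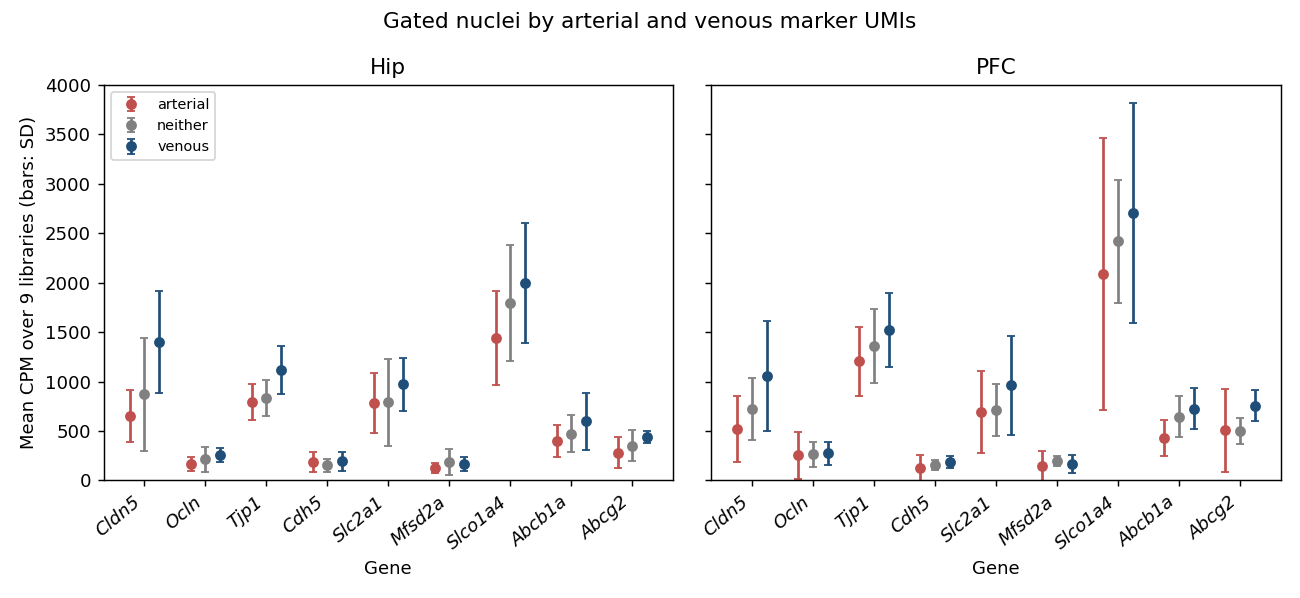
Mean CPM over 9 libraries (points; bars are SD) of each gene in gated nuclei with arterial markers, with venous markers or with neither, in Hip and PFC. Cldn5 in Hip averaged 1399 CPM in venous and 656 CPM in arterial nuclei. Nuclei with UMIs of both marker sets are left out.

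Between the regions, Hip endothelial nuclei had lower Abcg2, Tjp1 and Slco1a4 than PFC, and no member was higher. Depth differed as well, at 49067853 to 63217083 UMIs a library in Hip and 20336250 to 26949210 in SPF and CGF PFC. GF PFC held 59126586 to 71463928. With Ttr left out, another type's markers were at least as high in 38.5% to 49.5% of gated Hip nuclei. In PFC this was 8.70% to 23.3% for SPF and CGF and 37.9% to 41.1% for GF. The part of depth and of other types in these regional differences was not tested. In edgeR's quasi-likelihood test over the 18 libraries with group as a term, 2294 of 9611 genes (23.9%) passed an adjusted p of 0.05, 1059 of them (11%) lower in Hip and 12.8% of the tested genes higher. Abcg2 differed by a log2 fold change of -0.72 ± 0.11 (SE; adjusted p = 8.1e-05), Tjp1 by -0.52 ± 0.12 (adjusted p = 0.00377) and Slco1a4 by -0.50 ± 0.14 (adjusted p = 0.0124). Regions of a mouse are paired, and with the mouse as a block 5 of 9 members were lower, beside 12.1% of all genes, Abcb1a (-0.31, adjusted p = 0.0422) and Ocln (-0.36, adjusted p = 0.0319) joining. Among the nuclei in which endothelial markers were highest, Slco1a4 no longer passed (-0.27, adjusted p = 0.0929) and Cldn5 was higher in Hip (0.63, adjusted p = 0.0126). With Ttr left out of the choroid plexus list these were -0.30 (adjusted p = 0.0511) and 0.57 (adjusted p = 0.0304). Slco1a4 also missed the threshold without CGF mouse 19 (-0.42, adjusted p = 0.0527), and Ocln passed without SPF mouse 30 (-0.40, adjusted p = 0.0444), after thinning to the lowest depth (-0.46, adjusted p = 0.0396) or with the trend on length and GC content removed (-0.45, adjusted p = 0.0141). With no filter on low counts Cldn5 was higher in Hip (0.46, adjusted p = 0.0106). Without these changes Ocln gave -0.34 (adjusted p = 0.0537), Cldn5 0.42 (adjusted p = 0.127), Abcb1a -0.28 (adjusted p = 0.128), Cdh5 0.24 (adjusted p = 0.289), Slc2a1 0.14 (adjusted p = 0.518) and Mfsd2a -0.17 (adjusted p = 0.575).

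Between conditions, members passed the test in PFC, where GF endothelial nuclei had more Cldn5 and Slc2a1 and less Slco1a4, Abcb1a and Abcg2 than SPF. In CPM scaled by edgeR's effective library size, Cldn5 stood at 1279, 1178 and 1679.7 in the GF mice, at 814, 726 and 539.9 in the SPF mice and at 988, 426 and 649 in the CGF mice. Every GF value of this tight junction gene lay above every SPF and CGF value. Its log2 fold change of GF over SPF was 1.01 ± 0.25 (SE; adjusted p = 0.00379). Slc2a1, the glucose carrier, had 1217, 1280.1 and 1345 CPM in GF, 708, 1089 and 734 CPM in SPF and 632, 599.8 and 785 CPM in CGF mice. GF did not overlap the others, SPF mouse 31 being the nearest, and the change was 0.61 ± 0.20 (adjusted p = 0.023).
Slco1a4 had 1447, 1672 and 1590.0 CPM in GF, 2634, 4137 and 2533 CPM in SPF and 2445, 2241 and 2079.8 CPM in CGF mice. For this organic anion carrier the 3 groups lay apart in the order GF, CGF, SPF, and GF over SPF was -0.98 ± 0.21 (adjusted p = 0.0011). The pump Abcb1a had 440.1, 477 and 515 CPM in GF, 788, 802 and 616 CPM in SPF and 795, 726 and 701 CPM in CGF mice, with GF below all others and a change of -0.61 ± 0.19 (adjusted p = 0.0154). Abcg2, the other pump, had 565, 494 and 512 CPM in GF and 662, 809 and 751 CPM in SPF mice, and in CGF mice 469, 584 and 494 CPM, a range that overlaps GF. It changed by -0.50 ± 0.18 (adjusted p = 0.0401).
The 4 remaining members did not pass. Tjp1 did not overlap between GF (1059.6, 1164 and 1099.7 CPM) and SPF (1218, 1838 and 1654 CPM), with a log2 fold change of -0.50 (adjusted p = 0.0713). Ocln gave -0.44 (adjusted p = 0.112), Mfsd2a 0.39 (adjusted p = 0.228) and Cdh5 0.06 (adjusted p = 0.865, 95% interval -0.37 to 0.49). The count of 5 of 9 members stands beside 2126 of 6776 genes called in this comparison (31.4%), 17.3% higher and 14.1% lower. By values that do not overlap, 6 of 9 members stood beside 44.9% of all genes.

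**Figure D3:**
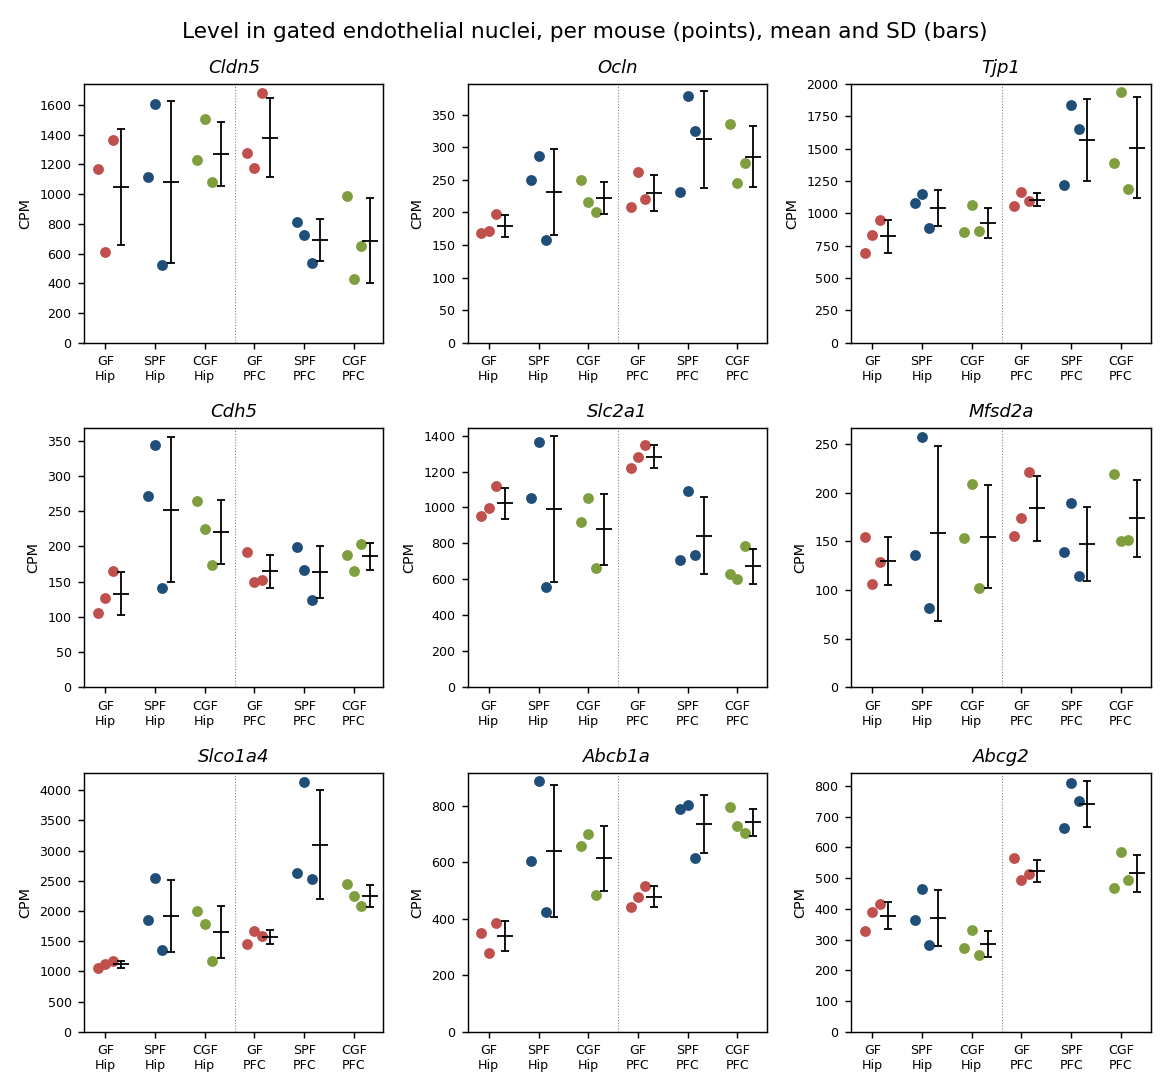
Level of each gene in gated endothelial nuclei as CPM, 1 point per mouse, with the mean and SD of 3 mice as bars, by condition and region. In PFC the GF points of Cldn5 and Slc2a1 lie above, and those of Slco1a4 and Abcb1a below, all SPF points.

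These PFC differences depended on which gated nuclei were counted. Mural markers summed to 2493 to 2901 CPM in the gated nuclei of GF PFC and to 1228 to 2190 CPM in SPF PFC, and excitatory neuron markers to 2013 to 2394 CPM against 1402 to 1726 CPM. Of the 10 mural markers 3 were higher in GF (Rgs5, Kcnj8 and Vtn), and of the 8 further endothelial genes 5 were lower and 1 higher, the 5 including Erg, which is also in the list of Wnt and regulator genes. The 4 haemoglobin genes also summed to more, 3157 to 4494 CPM in GF and 365 to 1478 CPM in SPF. Of them 2 were called higher (Hbb-bs and Hbb-bt). GF PFC had the lowest mitochondrial share with no overlap. Arterial markers summed to 283 to 348 CPM in GF PFC and 372 to 512 CPM in SPF PFC, without overlap. Venous markers overlapped, at 424 to 789 CPM in GF PFC and 598 to 982 CPM in SPF PFC. The gate gene Flt1, the arterial Bmx and Vegfc and the venous Vwf were lower in GF, and the venous Slc38a5 higher. The part of all these in the result was not tested. CGF PFC held 1208 to 3855 CPM of mural markers and 3824 to 9771 CPM of haemoglobin genes. When only nuclei with endothelial markers highest were summed, which removed 37.9% to 41.1% of the gated nuclei of GF and 8.70% to 22.8% of those of SPF, Cldn5 gave a log2 fold change of 1.40 (adjusted p = 0.000331), Slc2a1 1.06 (adjusted p = 0.000495) and Mfsd2a 0.83 (adjusted p = 0.0207). In the same nuclei Slco1a4 gave -0.47 (adjusted p = 0.0667), Abcb1a -0.18 (adjusted p = 0.501) and Abcg2 0.01 (adjusted p = 0.971), so that no lower call was left. In these nuclei other types' markers still stood apart without overlap, mural markers at 2086 to 2613 CPM in GF against 782 to 1522 CPM in SPF and excitatory neuron markers at 1556 to 1864 CPM against 732 to 1100.4 CPM, and their part was not tested.
The result for Cldn5 also moved with gene size. Genes spanning under 5 kb lay at a median of 1.10 on the log2 scale (406 genes), genes of 5 to 20 kb 0.42 (1296 genes), genes of 20 to 50 kb -0.04 (1831 genes), genes of 50 to 100 kb -0.23 (1411 genes) and genes over 100 kb, which hold Tjp1 and Abcg2, -0.16 (1825 genes). With the trend on length and GC content removed Cldn5 gave 0.23 ± 0.22 (adjusted p = 0.491) and Mfsd2a 0.08, whereas Slc2a1 (0.67, adjusted p = 0.0124), Slco1a4 (-1.01, adjusted p = 0.00065), Abcb1a (-0.52, adjusted p = 0.0399) and Abcg2 (-0.50, adjusted p = 0.0391) still passed. All 3 GF PFC libraries also held more UMIs than those of SPF and CGF PFC, so that the condition and whatever set these libraries apart cannot be told apart. With the gated sums of every library thinned to the lowest mean UMIs per gated nucleus, Cldn5 (1.04, adjusted p = 0.0039), Slc2a1 (0.64, adjusted p = 0.0223), Slco1a4 (-0.99, adjusted p = 0.00091), Abcb1a (-0.61, adjusted p = 0.0209) and Abcg2 (-0.54, adjusted p = 0.0377) still passed. The sums were thinned after the gate, which was not redone. Such thinning leaves the expected fold changes unchanged, so it cannot take out the difference in depth.
Single mice carried some of the calls. Cldn5 and Slco1a4 passed with each of the 9 mice left out in turn. Abcb1a missed without GF mouse 5 (-0.53, adjusted p = 0.0868), GF mouse 6 (-0.59, adjusted p = 0.0558), SPF mouse 30 (-0.56, adjusted p = 0.0554) or SPF mouse 31 (-0.54, adjusted p = 0.0533). Slc2a1 missed with a gate of 6 UMIs (0.51, adjusted p = 0.081) and without GF mouse 7 (0.60, adjusted p = 0.0682), SPF mouse 30 (0.50, adjusted p = 0.11) or SPF mouse 32 (0.53, adjusted p = 0.0991). Abcg2 missed without any GF mouse (adjusted p = 0.0807, 0.142 and 0.133 for mice 5, 6 and 7), and without SPF mouse 31 or SPF mouse 32 (adjusted p = 0.108 for both). Tjp1 passed without SPF mouse 30 (-0.66, adjusted p = 0.035) or CGF mouse 18 (-0.50, adjusted p = 0.0415), and when the 3 CGF libraries did not enter the fit (-0.52, adjusted p = 0.0448). With no filter on low counts Abcb1a (-0.54, adjusted p = 0.0699) and Abcg2 (-0.44, adjusted p = 0.173) missed, and Abcg2 also missed with RLE size factors (-0.48, adjusted p = 0.0502).

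**Figure D4:**
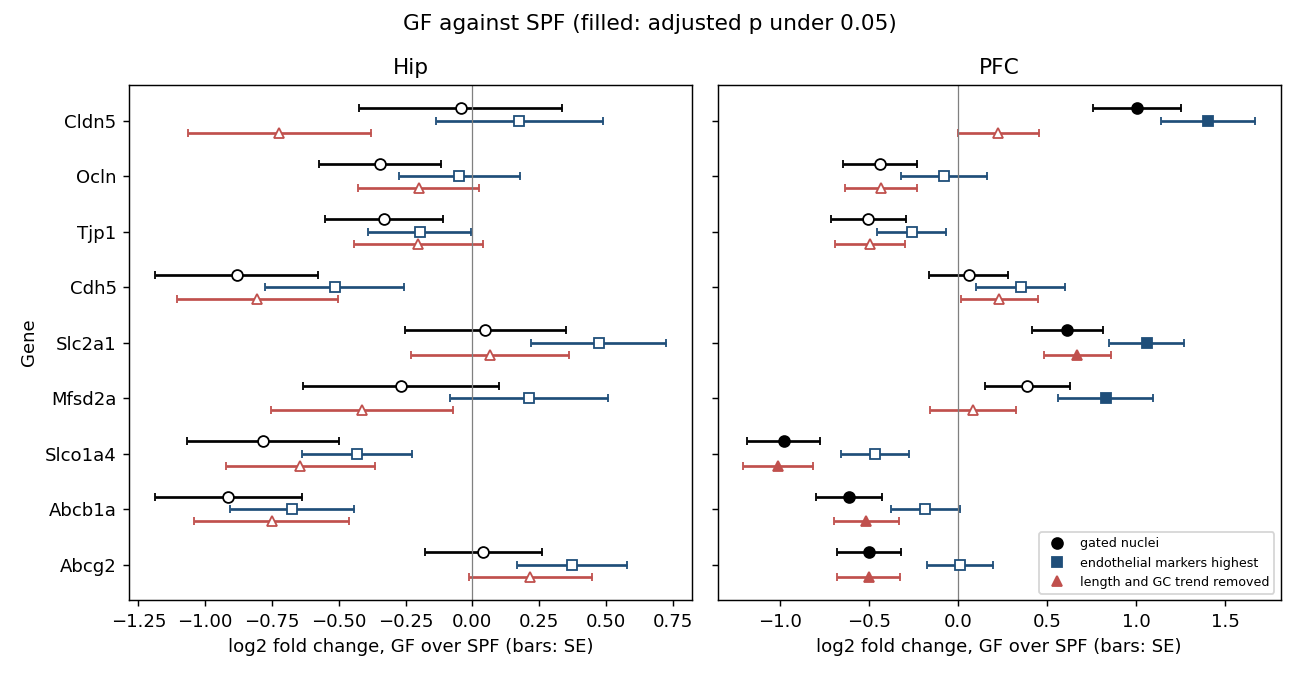
Log2 fold change of GF over SPF in Hip and PFC for each gene (bars are SE; filled marks have an adjusted p under 0.05), for all gated nuclei, for those with endothelial markers highest, and with the length and GC trend removed. In PFC Slc2a1 is filled in all 3, at 0.61, 1.06 and 0.67.

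**Figure D5:**
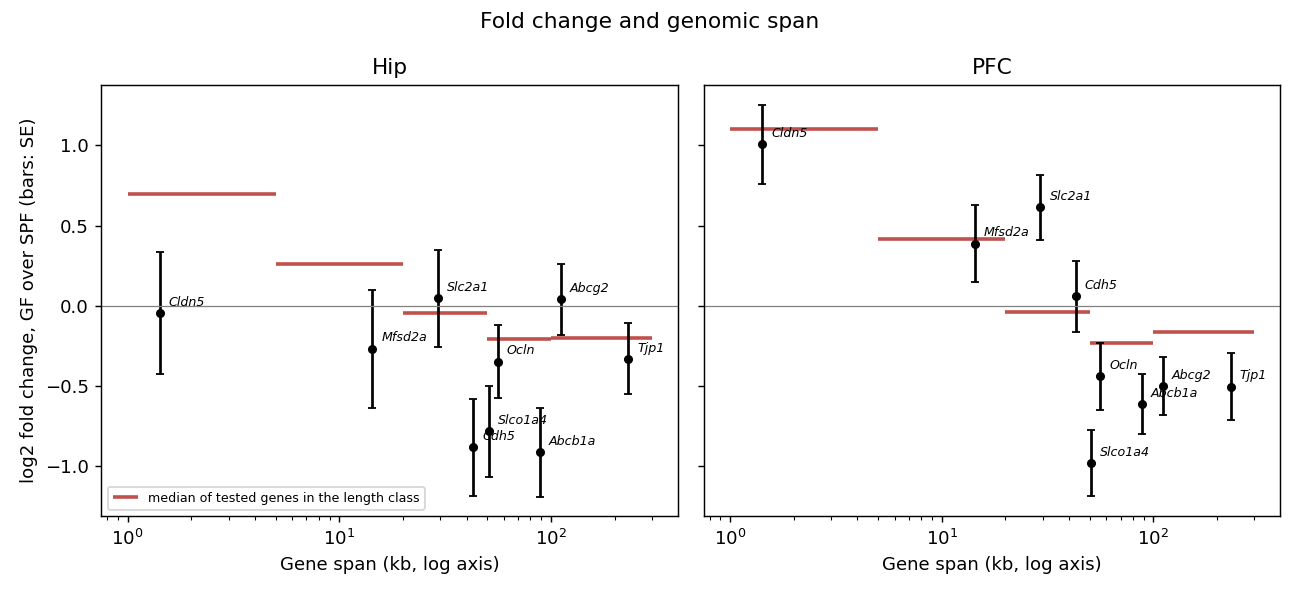
Log2 fold change of GF over SPF against gene span in kb (log axis) for each gene (bars are SE), with the median of all tested genes in 5 length classes as red lines. In PFC Cldn5 at 1.01 lies beside the median of 1.10 for genes under 5 kb.

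Against CGF, which shares its GF samples with the comparison above, GF PFC nuclei had Cldn5 at 0.99 ± 0.25 (SE; adjusted p = 0.00456), Slc2a1 at 0.92 ± 0.20 (adjusted p = 0.00168) and Abcb1a at -0.63 ± 0.18 (adjusted p = 0.0135), beside 2019 of 6776 genes called (29.8%). Slco1a4 gave -0.52 ± 0.21 (adjusted p = 0.0588), and it passed without SPF mouse 31 (adjusted p = 0.031) or SPF mouse 32 (adjusted p = 0.0497), without all SPF libraries (-0.56, adjusted p = 0.0248) or with the length and GC trend removed (-0.58, adjusted p = 0.0355). Abcg2 gave 0.03 (adjusted p = 0.912), Tjp1 -0.43 (adjusted p = 0.122), Ocln -0.32 (adjusted p = 0.252), Cdh5 -0.20 (adjusted p = 0.515) and Mfsd2a 0.09 (adjusted p = 0.802). Among nuclei with endothelial markers highest Abcb1a gave -0.25 (adjusted p = 0.349), and with the length and GC trend removed Cldn5 gave 0.31 (adjusted p = 0.323). Abcb1a also missed without GF mouse 5 (adjusted p = 0.0784) or CGF mouse 17 (adjusted p = 0.0507).
By values that do not overlap, 5 of 9 members stood beside 43.8% of all genes.
Between CGF and SPF in PFC no member passed, beside 5 of 6776 genes (0.0738%). Abcg2 gave -0.53 ± 0.19 (adjusted p = 0.523) and Slco1a4 -0.46 ± 0.21 (adjusted p = 0.656), each without overlap between the groups (2 of 9 members, beside 10.6% of all genes). Cldn5 gave 0.02 with a 95% interval from -0.48 to 0.52. Slc2a1 gave -0.31, Mfsd2a 0.30, Cdh5 0.26, Ocln -0.12, Tjp1 -0.07 and Abcb1a 0.02, with adjusted p from 0.803 to 0.997.

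In Hip no member passed in any comparison of conditions. GF against SPF called 463 of 10455 genes there (4.43%; 3.19% higher and 1.23% lower), GF against CGF 197 (1.88%) and CGF against SPF 1 (0.00956%). Abcb1a stood at 349, 280.3 and 385 CPM in GF, 605, 886 and 425 CPM in SPF and 658, 698 and 483 CPM in CGF mice. GF lay below the other groups, with a log2 fold change to SPF of -0.91 ± 0.28 (adjusted p = 0.0747) and to CGF of -0.85 ± 0.28 (adjusted p = 0.111). DESeq2 called it in GF against SPF (-0.90, adjusted p = 0.0403), as did edgeR with no filter on low counts (-0.93, adjusted p = 0.0137) or a gate of 3 UMIs (-0.97, adjusted p = 0.0453), and edgeR called it against CGF with no filter (-0.85, adjusted p = 0.041), without the SPF libraries (-0.85, adjusted p = 0.0312) or without SPF mouse 31 (-0.86, adjusted p = 0.0435). Slco1a4 had 1049, 1129 and 1172 CPM in GF and 1859, 2551 and 1359.7 CPM in SPF mice, with no overlap and -0.78 ± 0.28 (adjusted p = 0.122). Cdh5 had 105, 127 and 166 CPM in GF and 271, 345 and 141 CPM in SPF mice, where SPF mouse 32 overlapped GF, and gave -0.88 ± 0.30 (adjusted p = 0.107; 0.0127 with no filter). Without SPF mouse 32 Abcb1a (-1.12, adjusted p = 0.0223), Cdh5 (-1.16, adjusted p = 0.0161) and Slco1a4 (-0.96, adjusted p = 0.0481) passed. Without both that library and GF mouse 6, the 2 Hip libraries with the most Ttr UMIs in gated nuclei (1465 and 5106), no member passed. This pair was chosen after seeing the data, and GF mouse 7 had nearly as many Ttr UMIs as SPF mouse 32 (1418) and more per UMI, 1452 against 1097 CPM. Cldn5 gave -0.04 ± 0.38 in Hip, with GF at 1168, 612 and 1363 CPM and SPF at 1118, 1605 and 522 CPM. Its 95% interval ran from -0.79 to 0.70. Genes under 5 kb lay at a median of 0.70 in Hip (797 genes), above Cldn5, and with the length and GC trend removed Cldn5 gave -0.72 (adjusted p = 0.285) against SPF and -1.01 (adjusted p = 0.189) against CGF. Ocln gave -0.35 (adjusted p = 0.384), Tjp1 -0.33 (adjusted p = 0.394), Mfsd2a -0.27 (adjusted p = 0.708), Slc2a1 0.05 (adjusted p = 0.949) and Abcg2 0.04 (adjusted p = 0.94).
Against CGF, GF Hip nuclei lay below without overlap also for Cdh5 (-0.69, adjusted p = 0.224), Slco1a4 (-0.56, adjusted p = 0.278) and Ocln (-0.30, adjusted p = 0.491). Abcg2 gave 0.42 (adjusted p = 0.312), Cldn5 -0.28, Mfsd2a -0.25, Slc2a1 0.23 and Tjp1 -0.17, the last 4 with adjusted p from 0.707 to 0.75. Between CGF and SPF in Hip the members ran from -0.37 for Abcg2 to 0.24 for Cldn5, with Slco1a4 at -0.22, Cdh5 at -0.19, Slc2a1 at -0.18, Tjp1 at -0.16, Abcb1a at -0.06, Ocln at -0.05 and Mfsd2a at -0.02. Mural markers summed to 2324 to 3203 CPM in the gated nuclei of GF Hip, 3109 to 6204 CPM in SPF Hip and 3750 to 4723 CPM in CGF Hip, and their part was not tested. By values that do not overlap, 2 of 9 members stood beside 28.7% of all genes in GF against SPF, 4 of 9 beside 30.3% in GF against CGF and 0 of 9 beside 9.17% in CGF against SPF.
Whether the GF to SPF difference itself differed between the regions was tested as an interaction. It called 216 of 9611 genes (2.25%) and no member. Cldn5 differed most in size, by -0.96 ± 0.48 (Hip minus PFC, adjusted p = 0.347), and Slco1a4 by 0.29 ± 0.34 (adjusted p = 0.76). Cdh5 differed by -0.83, Abcg2 by 0.63, Mfsd2a by -0.54, Slc2a1 by -0.47, Tjp1 by 0.26, Abcb1a by -0.21 and Ocln by 0.18, with adjusted p from 0.252 to 0.845.

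Other genes of the barrier were read from lists of junction, transport, transcytosis and receptor, Wnt and regulator, and leukocyte adhesion genes, beside 17.3% of all tested genes higher and 14.1% lower in PFC. Both directions together, 31.4% of all genes were called, beside 4 of 11 junction, 6 of 24 transport, 4 of 12 transcytosis and 8 of 25 Wnt and regulator genes. In GF against SPF of PFC, 1 of 11 tested junction genes was higher and 3 lower, among them Esam, an adhesion molecule of endothelial junctions, by 0.91 ± 0.21 (SE; adjusted p = 0.00228), and Afdn, which ties junctions to actin, by -0.72 ± 0.19 (adjusted p = 0.00576) and Cgnl1 by -0.77 ± 0.20 (adjusted p = 0.00642). Of 24 transporters 3 were higher and 3 lower. The zinc exporter Slc30a1 gave 0.96 ± 0.25 (adjusted p = 0.00618) and the amino acid carrier Slc38a5, which is also one of the 6 venous genes, 1.28 ± 0.35 (adjusted p = 0.00771), while the glutamine carrier Slc38a3 gave -0.86 ± 0.25 (adjusted p = 0.0112). Of 12 transcytosis and receptor genes the caveolar genes Cav2 (1.51, adjusted p = 0.00212) and Cavin1 (0.97, adjusted p = 0.0156) were higher, and the transferrin receptor Tfrc (-1.07, adjusted p = 0.00341) and the insulin receptor Insr (-0.48, adjusted p = 0.0491) lower.
Of 25 Wnt and regulator genes, a list that holds Wnt receptors, effectors and feedback inhibitors and endothelial transcription factors, 8 were lower and 0 higher, where the background was 14.1% lower and 17.3% higher, led by the Wnt factor Lef1 (-1.09, adjusted p = 0.000212) and the ETS factor Erg (-1.02, adjusted p = 0.0018). Their median was -0.46 beside -0.03 over all genes, while that of the members was -0.44, and no test of the list was run. Among nuclei with endothelial markers highest 4 of 24 of these genes were lower and 2 higher, with a median of -0.16, and with the length and GC trend removed 10 of 25 were lower and 0 higher, with a median of -0.64. Of the 8 lower calls 4 were kept in the first and 7 in the second. Of 2 leukocyte adhesion genes Icam2 was higher (1.90, adjusted p = 0.000229). Counts in SPF PFC were low: summed over 3 libraries, 18 UMIs of Cav2, 31 of Cavin1, 25 of Slc38a5 and 22 of Icam2. With endothelial markers highest, Afdn, Cgnl1, Slc38a3, Tfrc, Insr and Erg no longer passed, with adjusted p from 0.0647 to 0.63, and with the length and GC trend removed Esam, Slc30a1, Slc38a5, Cav2, Cavin1, Cgnl1 and Insr no longer passed, with adjusted p from 0.0559 to 0.757. Single mice ended the calls of Cavin1 (without SPF mouse 30, adjusted p = 0.0718), Cgnl1 (without GF mouse 6, adjusted p = 0.0504), Slc38a5 (without SPF mouse 32, adjusted p = 0.113), Slc38a3 (without GF mouse 5, GF mouse 7 or SPF mouse 30, adjusted p from 0.0569 to 0.0781) and Insr (without any mouse but SPF mouse 30 and CGF mouse 18, adjusted p from 0.0521 to 0.196). Thinning to the lowest depth also ended the call of Insr.
In Hip, where 3.19% of all genes were higher and 1.23% lower, 1 of 27 tested transporters was lower, the sphingosine phosphate exporter Spns2 (-0.99, adjusted p = 0.0388), and 3 of 26 Wnt and regulator genes, led by Tnfrsf19 (-0.93, adjusted p = 0.0259) and Foxc1 (-1.30, adjusted p = 0.0356). These 3 calls were lost without GF mouse 5, without GF mouse 6, without GF mouse 7 or without SPF mouse 30, with adjusted p from 0.054 to 0.151, and with only the 6 libraries compared in the fit (adjusted p from 0.0583 to 0.0753). Spns2 and Tnfrsf19 were also not called with endothelial markers highest, nor with the length and GC trend removed, while Foxc1 was called in both. No junction, transcytosis or adhesion gene passed in Hip, but with endothelial markers highest the adhesion gene Icam2 was higher in GF.

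Members were also measured outside the endothelium, where GF and SPF differed at many genes (32.3% called in astrocytes of Hip, 46.3% in those of PFC, 45.4% in excitatory neurons of Hip and 62.9% in those of PFC). Astrocytes, whose end-feet wrap the vessels, had Mfsd2a at 70.9, 44.2 and 56.8 CPM in GF and 23.2, 28.4 and 23.3 CPM in SPF Hip, a log2 fold change of 1.23 ± 0.18 (SE; adjusted p = 0.000196). Astrocyte Slc2a1 was higher in GF of both regions, in PFC by 0.94 ± 0.25 (adjusted p = 0.00434) and in Hip by 0.76 ± 0.19 (adjusted p = 0.00638). Slco1a4 of Hip astrocytes, at 3 to 8 UMIs per GF library and 17 to 32 per SPF library, gave -1.51 ± 0.52 (adjusted p = 0.0357) and missed the threshold without GF mouse 5, GF mouse 7 or any SPF mouse (adjusted p from 0.0516 to 0.164). Tjp1 of PFC astrocytes gave 0.38 ± 0.15 (adjusted p = 0.0402) and missed without any 1 GF or SPF mouse (adjusted p from 0.0641 to 0.177). Of the 4 members tested there Abcg2 gave 0.64 (adjusted p = 0.162) and passed without SPF mouse 31 (1.26, adjusted p = 0.018), and Mfsd2a gave 0.44 (adjusted p = 0.118). In Hip astrocytes Cdh5 gave -0.64, Abcb1a 0.61, Cldn5 -0.32, Ocln -0.20, Tjp1 0.20 and Abcg2 0.09, with adjusted p from 0.187 to 0.838.
In excitatory neurons of PFC Cldn5 stood at 2.14, 1.34 and 3.27 CPM in GF and 1.19, 0.947 and 0.958 CPM in SPF, a log2 fold change of 1.24 ± 0.32 (SE; adjusted p = 0.00513), Cdh5 gave 1.70 ± 0.44 (adjusted p = 0.00513), Slc2a1 0.54 ± 0.17 (adjusted p = 0.0133) and Slco1a4 -1.03 ± 0.30 (adjusted p = 0.00913). Slc2a1 missed without SPF mouse 30 (adjusted p = 0.0594) and Slco1a4 without SPF mouse 32 (adjusted p = 0.0576). Cldn5, Slc2a1 and Slco1a4 were called with the same sign in the endothelial nuclei of PFC, and Cdh5, with the largest change here, was not called there (0.06, adjusted p = 0.865). Free RNA gives UMIs in nuclei that do not express a gene, and its part in these values was not tested. Tjp1 (0.17), Ocln (0.37), Mfsd2a (-0.22), Abcb1a (-0.09) and Abcg2 (0.05) did not pass in PFC excitatory neurons, with adjusted p from 0.12 to 0.835. Of these, Tjp1 passed in 1 of 11 alternative settings. In Hip excitatory neurons Tjp1 (-0.30, adjusted p = 0.00453) and Abcg2 (-0.34, adjusted p = 0.00542) were lower. Cdh5 gave -1.78 there (adjusted p = 0.069) and passed with DESeq2 (-1.83, adjusted p = 0.0336), without GF mouse 7 (adjusted p = 0.0379) or without CGF mouse 19 (adjusted p = 0.0332). The others were Slco1a4 at -1.11, Abcb1a at -0.47, Cldn5 at -0.41, Slc2a1 at 0.18, Mfsd2a at 0.14 and Ocln at 0.03, with adjusted p from 0.266 to 0.918. In mural nuclei Tjp1 alone passed the filter, and it gave 0.73 in Hip (adjusted p = 0.321) and 0.49 in PFC (adjusted p = 0.347), beside 3.26% and 14.1% of genes called.

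The share of gated nuclei among all nuclei was 1.92%, 1.71% and 2.6% in GF PFC, 1.09%, 1% and 1.73% in SPF PFC and 0.976%, 0.813% and 1.36% in CGF PFC. An exact permutation test over the 3 groups gave p = 0.0429, or 0.0857 adjusted over both regions, and the GF to SPF difference of 0.804 percentage points had p = 0.2 (exact, two-sided, where 3 against 3 mice cannot go below 0.1). Counting only nuclei with endothelial markers highest, the difference was 0.222 percentage points (exact p = 0.193 over 3 groups). In Hip the shares were 0.590%, 1.81% and 2.23% in GF, 1.30%, 1.18% and 2.50% in SPF and 0.929%, 0.798% and 1.98% in CGF mice (exact permutation p = 0.768). Since the gate needs 4 UMIs and GF PFC nuclei held more UMIs than those of SPF and CGF, nuclei thinned to 1000 UMIs were also gated, and gave 1.44% ± 0.338 in GF, 0.869% ± 0.281 in SPF and 0.653% ± 0.129 in CGF PFC (SD, n = 3). The exact permutation p was 0.0321 over the 3 groups, or 0.0643 adjusted over both regions, and 0.2 for GF against SPF. Nuclei under 1000 UMIs were left out of this count, and the loss was unequal. Of the gated PFC nuclei 497 of 517 reached 1000 UMIs in GF, 198 of 258 in SPF and 170 of 233 in CGF.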

How the data were processed

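Nuclei were isolated from frozen Hip and PFC and sequenced as 10x droplet libraries, 1 per region and mouse. The authors deposited UMI counts per gene and barcode, made with Cell Ranger (3.1.0 per the matrix headers) on mm10 after CASAVA 1.8, and sources differ on the kit version. No column belonged to a sample of another series (0 columns). The 9 members and all gene lists were chosen with earlier results of these data known.

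Barcodes with at least 200 genes and at most 10% mitochondrial UMIs were kept, which removed 1924 of 139924, and no doublet caller was run. Nuclei outside the endothelial gate were typed from marker lists. Ttr was left out of the choroid plexus list for this typing, a choice made after seeing the data. Counts of gated endothelial nuclei were summed per library and tested in R 4.3.3 with edgeR 4.0.16 (TMM, filterByExpr, quasi-likelihood test), within each region with GF, SPF and CGF as groups, or over both regions with group as a term; p-values were adjusted by Benjamini-Hochberg at 0.05, and the SE is the log2 fold change divided by the root of F. Summing cells makes the mouse the replicate within a region, where p-values measure the spread between mice of a group, pooled over the groups. The fits over both regions took the 18 libraries as separate. Their p-values measure the spread between libraries, except where the mouse entered as a block. Intervals are 1.96 SE on either side. Shares were compared with exact permutation tests in SciPy 1.17.1. Of the edgeR tests, those of GF against SPF in endothelial nuclei of each region and their interaction were tried on simulated data, and the others were not.

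Named were all members in each comparison, of each list up to 2 genes higher and 2 lower with the smallest p in GF against SPF, and the 5 genes most like the members over cell types. Of the genes 30766 of 30905 (99.6%) matched GENCODE vM21 by gene identifier, and the list gene Magi1 was tested in no comparison. A gene that this rule names is not reported here.

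Hip and PFC of a mouse carry 1 number in the labels, so they pair, and same-mouse deviations correlated at r = 0.0143 to 0.192. Depth was 20336250 to 71463928 UMIs a library, and 142565 to 1335727 UMIs in the gated nuclei. Alternatives were DESeq2 1.42.0, RLE size factors, no filter, gates of 3 and 6 UMIs, gated nuclei with endothelial markers highest (also with Ttr left out, chosen after seeing the data), thinning of the gated sums, an offset for a spline trend on GC content and length, only the libraries compared, mouse as a block and each mouse left out. The astrocyte, excitatory neuron and mural fits were repeated only with DESeq2, with no filter and with each mouse left out.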

Additional observations from a re-analysis of the deposited data

Results flagged for a closer look

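Among the barrier genes named here, Cavin1, which builds the coat of caveolae, gave a GF to SPF difference that itself differed between the regions. Over all genes this interaction called 216 of 9611 (2.25%). Cavin1 was the 1 call among 14 transcytosis and receptor genes. There were 0 calls among 9 members, 14 junction, 27 transport, 27 Wnt and regulator and 3 adhesion genes, so the lists do not stand out from all genes. Its UMIs summed over 3 libraries were 31 in SPF PFC, 194 in GF PFC, 407 in SPF Hip and 205 in GF Hip. In Hip the log2 fold change was -0.83 (adjusted p = 0.113) and in PFC 0.97 (adjusted p = 0.0156), and the interaction, Hip minus PFC, was -1.72 ± 0.44 (SE; edgeR's quasi-likelihood test, adjusted p = 0.0388, n = 3 mice a group). Mural markers in the gated nuclei moved with it: they summed to 2324 to 3203 CPM in GF and 3109 to 6204 CPM in SPF Hip, and to 2493 to 2901 CPM in GF and 1228 to 2190 CPM in SPF PFC, and their part in the result was not tested. With mouse as a replicate block it was -1.59 (adjusted p = 0.0229). It missed the threshold with a gate of 6 UMIs (adjusted p = 0.0939), with endothelial markers highest (adjusted p = 0.066) and after thinning to the lowest depth (adjusted p = 0.053), and with any 1 of GF mouse 5, GF mouse 6, GF mouse 7, SPF mouse 30, SPF mouse 31 or CGF mouse 17 left out (adjusted p from 0.0553 to 0.185).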

How the results depend on the processing

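With 3 mice a group and 48 to 235 gated nuclei a library, the sign of small values turned with single mice. Values below are counts of genes past an adjusted p of 0.05, or log2 fold changes of members, where they left the reported call or sign; the cause was not tested for any of them. Of all values recomputed, 2242 kept direction and call or moved by less than the spread between libraries, 127 lost and 32 gained the threshold, 105 changed sign and 121 moved further. RLE size factors moved no count by over 1.5 times and turned no sign, and of the genes named they lost Abcg2 and Insr in GF against SPF of PFC.

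Mouse as a replicate block could be fitted only where both regions enter. It raised the members called between Hip and PFC from 3 to 5 and changed no other call of a member.

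Counts of genes called moved as follows. For CGF against SPF in Hip, 1 became 7 with DESeq2, 4 with endothelial markers highest, 0 with Ttr also left out, 0 with the length and GC trend removed, 67 with no filter on low counts, 0 in only the 6 libraries compared and 5 without GF mouse 6 and SPF mouse 32. For CGF against SPF in PFC, 5 became 0 with endothelial markers highest (Ttr kept or left out), with a gate of 6 UMIs or in only 6 libraries, 34 with no filter and 3 after thinning to the lowest depth. For GF against CGF in Hip, 197 became 368 with a gate of 3 UMIs, 35 with the length and GC trend removed, 620 with no filter and 640 in only 6 libraries, the last 2 with 1 member. For GF against SPF in Hip, 463 became 219 with endothelial markers highest and again in only 6 libraries, 287 with Ttr left out, 161 with the length and GC trend removed, 1024 with no filter and 235 without GF mouse 6 and SPF mouse 32. Members called there went from 0 to 1 with DESeq2 or a gate of 3 UMIs and to 2 with no filter. In PFC, endothelial markers highest (Ttr kept or left out) gave 1223 genes for GF against SPF, with 3 members, and 1123 for GF against CGF. With no filter, 3 members passed in GF against SPF of PFC, of 2475 genes called, and 4 in PFC astrocytes, of 5518. The interaction called 331 genes with a gate of 3 UMIs, 130 with 6 UMIs, 396 with no filter and 106 after thinning. Hip against PFC called 963 genes with endothelial markers highest, 1027 with Ttr left out and 1411 after thinning. Mural GF against SPF called 18 genes in Hip and 117 in PFC with DESeq2, and 6 in Hip with no filter.

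Uncalled members changed sign as follows, except Abcg2 in GF against SPF of PFC, which was called. With endothelial markers highest, Mfsd2a gave 0.15 and Ocln 0.035 in CGF against SPF of Hip and of PFC, Cldn5 0.12, Mfsd2a 0.21 and Tjp1 0.21 in GF against CGF of Hip, Cdh5 0.19 in GF against CGF of PFC, Cldn5 0.27 and Mfsd2a 0.36 in GF against SPF of Hip, Abcg2 0.012 in GF against SPF of PFC and Mfsd2a 0.030 between the regions. With Ttr left out, Mfsd2a gave 0.18 and Ocln 0.0012 in CGF against SPF of Hip, Ocln 0.035 in that of PFC, Cldn5 0.0036, Mfsd2a 0.036 and Tjp1 0.091 in GF against CGF of Hip, Cdh5 0.19 in that of PFC, Cldn5 0.18 and Mfsd2a 0.21 in GF against SPF of Hip and Abcg2 0.012 in that of PFC. A gate of 3 UMIs gave Abcb1a -0.011 in CGF against SPF of PFC, and Abcg2 -0.031 and Slc2a1 -0.018 in GF against SPF of Hip. A gate of 6 UMIs gave Abcb1a 0.00021, Mfsd2a 0.039 and Ocln 0.011 in CGF against SPF of Hip, Abcb1a -0.032 and Cldn5 -0.023 in that of PFC, Mfsd2a -0.068 in GF against CGF of PFC, and Cldn5 0.049 and Cdh5 -0.037 in GF against SPF of Hip and of PFC. With the length and GC trend removed, Mfsd2a gave 0.042 and Cldn5 -0.087 in CGF against SPF of Hip and of PFC, Tjp1 0.036 in GF against CGF of Hip, and Abcg2 -0.0088 and Mfsd2a -0.18 in that of PFC. In only 6 libraries, Abcg2 gave -0.0082 in GF against CGF of PFC and Cldn5 0.010 in GF against SPF of Hip. Thinning gave Abcb1a 0.0020, Mfsd2a 0.015 and Ocln 0.020 in CGF against SPF of Hip, Cldn5 -0.029 in that of PFC, and Cldn5 0.00040 and Cdh5 -0.13 in GF against SPF of Hip and of PFC. Without GF mouse 6 and SPF mouse 32, Cldn5 gave -0.072 in CGF against SPF and 0.012 in GF against CGF of Hip, and Abcg2 -0.10 and Slc2a1 -0.18 in GF against SPF of Hip. DESeq2 gave Ocln -0.026 in excitatory neurons of Hip.

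With each mouse left out in turn, counts of genes ran from 36 to 766 for GF against SPF of Hip (0 to 3 members), from 2 to 472 for GF against CGF of Hip (0 to 1 member, the 1 being without SPF mouse 31), from 0 to 7 and from 0 to 8 for CGF against SPF of Hip and of PFC, from 88 to 201 for the interaction and from 0 to 62 for mural nuclei of Hip. Members called ran from 3 to 6 for GF against SPF of PFC, beside 1541 to 2326 genes, and from 1 to 3 in PFC astrocytes, beside 3809 to 4812 genes. Signs of uncalled members turned within these ranges. In GF against SPF of Hip, Abcg2 ran from -0.10 to 0.21, Cldn5 from -0.35 to 0.34, Mfsd2a from -0.58 to 0.23 and Slc2a1 from -0.22 to 0.33, and in that of PFC Cdh5 from -0.15 to 0.22. In GF against CGF, Cldn5 ran from -0.51 to 0.0045 and Mfsd2a from -0.50 to 0.044 in Hip, and Abcg2 from -0.030 to 0.12 and Mfsd2a from -0.061 to 0.30 in PFC. In CGF against SPF of Hip, Abcb1a ran from -0.26 to 0.24, Cdh5 from -0.47 to 0.086, Cldn5 from -0.078 to 0.62, Mfsd2a from -0.34 to 0.48, Ocln from -0.26 to 0.12, Slc2a1 from -0.44 to 0.11 and Slco1a4 from -0.40 to 0.023. In that of PFC, Abcb1a ran from -0.098 to 0.089, Cldn5 from -0.32 to 0.25, Ocln from -0.28 to 0.011 and Tjp1 from -0.28 to 0.083. For the interaction Ocln ran from -0.14 to 0.38. In Hip astrocytes Abcb1a ran from -0.026 to 0.94, Abcg2 from -0.19 to 0.27, Cldn5 from -0.98 to 0.18 and Ocln from -0.74 to 0.096. In excitatory neurons Cldn5 ran from -1.12 to 0.047, Mfsd2a from -0.014 to 0.29 and Ocln from -0.062 to 0.14 in Hip, and Abcb1a from -0.40 to 0.31 and Abcg2 from -0.0019 to 0.074 in PFC.

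The GF to SPF difference in the share of gated nuclei, in percentage points, ran from -0.457 to 0.361 in Hip and from 0.545 to 1.03 in PFC with a mouse left out, the PFC test over 3 groups missing 0.05 without any 1 mouse except SPF mouse 32 and CGF mouse 19. A gate of 3 UMIs gave 0.727 in PFC, and endothelial markers highest gave 0.222 in PFC (also with Ttr left out, when Hip gave 0.0157). Mean endothelial levels with endothelial markers highest were 1449.7 CPM for Cldn5, 338 for Ocln, 1449.8 for Tjp1, 245 for Cdh5, 1295 for Slc2a1, 228 for Mfsd2a, 2768 for Slco1a4, 817 for Abcb1a and 653 for Abcg2, and with Ttr left out 1426, 336, 1433, 245, 1283, 224, 2748, 812 and 651 CPM in the same order. Thinned to 700 UMIs, the share of nuclei with a UMI was 16.6% for Ocln, 52.4% for Tjp1, 12.5% for Cdh5, 43.7% for Slc2a1, 10.6% for Mfsd2a, 33.9% for Abcb1a and 28.9% for Abcg2. With at least 2 UMIs of the vessel markers, venous minus arterial was -27.0 CPM for Ocln in PFC, -16.3 CPM for Cdh5 in Hip and 676 CPM for Tjp1 in PFC.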
